A study of Mus musculus with 4 samples.

Results

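The genes described here are 8 Toll-like receptors and 2 proteins that work beside them at the cell surface, measured in RNA-seq libraries of mouse peritoneal macrophages. They were taken by name from a table of read counts with 54532 genes: Tlr1, Tlr2, Tlr3, Tlr4, Tlr6, Tlr7, Tlr8, Tlr13, Cd14 and Ly96. All 10 were in the table, and all 10 had at least 10 reads in every library, so that none was lost to a filter on low counts. In 4T1-CM, Tlr2 was 42.0-fold higher and Cd14 was 11.5-fold higher than in normal medium, Tlr7 was 2.89-fold higher, and the other 7 genes differed by less than 2-fold.

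Toll-like receptors are membrane proteins with which macrophages recognise parts of microbes and of damaged cells. TLR2, TLR1, TLR6 and TLR4 sit at the cell surface, where TLR2 pairs with TLR1 or TLR6 to bind bacterial lipoproteins and TLR4 binds lipopolysaccharide (LPS). TLR3, TLR7, TLR8 and TLR13 sit in endosomes and bind nucleic acids. CD14 captures LPS and lipoproteins and hands them over, and MD-2, encoded by Ly96, is the subunit of the TLR4 complex that holds LPS. Most of these receptors signal through the adaptor MyD88 to NF-kB, and the expression of Tlr2 and Cd14 is itself raised by such signals in macrophages.

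There were 4 libraries, 1 for each condition. The wild-type macrophages were cultured in normal medium or with 30% conditioned medium of 4T1 cells (4T1-CM), a mouse mammary carcinoma line, and in each medium with the solvent DMSO or with 10 µM CH223191, an antagonist of the aryl hydrocarbon receptor (AHR). According to the study's methods, peritoneal macrophages were elicited with thioglycollate in young adult BALB/c mice, the inhibitor was given ahead of the conditioned medium, and that medium was mixed with normal medium. How long these cultures were treated and how many mice each came from are not given in the sources used here. Because the conditioned medium holds secreted products of the tumour cells and spent medium together, the components cannot be told apart.

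The libraries held 15535405 to 17557127 reads on genes, and 17395 to 18665 genes had at least 1 read. A ratio between libraries was taken for 13715 genes after TMM scaling, which corrects the library totals, and a gene was counted as changed in level when it was at least 2-fold higher or lower. With 1 library in each condition, the spread between cultures was not measured. The 95% intervals given here are exact (Clopper-Pearson), come from how the reads of a gene divide over 2 libraries, and cover counting error only. Of the 7 macrophage markers, 7 were detected in every library, and their sum was 14028 and 18261 CPM (reads scaled to a common library size) in normal medium and 37499 and 40034 CPM in 4T1-CM, in each case with DMSO first. Lyz2 made up most of that sum, with DMSO at 11888 CPM in normal medium and 32957 CPM in 4T1-CM. Adgre1, Lyz2 and Fcgr1 were the macrophage markers at least 2-fold higher in 4T1-CM with either solvent or inhibitor. Csf1r was at 2.04-fold with DMSO and 1.97-fold with CH223191, and Cd68, Itgam and Mertk were under 2-fold with either. Markers of T cells had 0 reads, and the sums were at most 1.35 CPM for epithelial tumour cells, 1.17 CPM for B cells, 0.18 CPM for mast cells and 3.77 CPM for dendritic cells, with Siglech at 0 reads and Clec9a and Ccr7 at 24 reads or fewer. Among the epithelial tumour markers, Cdh1 had 3 and 7 reads in normal medium and 16 and 20 in 4T1-CM. Krt8 had 4 and 3 reads against 0 and 1. Eosinophil markers summed to 16.2 and 14.4 CPM in normal medium and to 6.17 and 5.79 CPM in 4T1-CM, nearly all of it Siglecf, with Epx and Prg2 at 0 reads. Neutrophil markers summed to 67.6 and 74.6 CPM in normal medium and to 242 and 181 CPM in 4T1-CM, with S100a9, Ly6g and Retnlg listed at 0 reads in every library and 4 of the 9 markers past the read minimum. Of these, S100a8 and Mmp8 were at least 2-fold higher in both pairs of libraries, and Cxcr2 was lower, with 12 and 9 reads in normal medium and 2 and 0 in 4T1-CM. Csf3r made up most of the sum in normal medium, at 58.3 and 60.3 CPM. It had 86.9 and 108 CPM in 4T1-CM, which is under 2-fold. Fibroblast markers summed to 63.0 and 30.1 CPM in normal medium and to 149 and 127 CPM in 4T1-CM, with Lum at 3 reads or fewer and Col1a1, Col1a2, Col3a1 and Dcn, 4 of the 5 past the read minimum, at least 2-fold higher. In a bulk library, more cells of one type and more RNA per cell cannot be told apart, and the part that these other cells have in the values of Tlr2 and Cd14 was not tested.

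The genes lie on several chromosomes of the mouse genome. On GRCm38, Tlr2 spans chromosome 3 from 83836272 to 83841767 on the minus strand and has 3 exons, of which a single one holds the whole coding sequence of 784 codons. Tlr1 and Tlr6 lie side by side on the minus strand of chromosome 5, at 64924679 to 64933563 and 64952031 to 64960097, with 18467 bases between them. Tlr7 (167304929 to 167330558) and Tlr8 (167242696 to 167264329) are neighbours on the minus strand of chromosome X, 40599 bases apart, and Tlr13 lies elsewhere on X at 106143204 to 106160493 on the plus strand. Tlr4 is at 66827584 to 66930284 on chromosome 4, Tlr3 at 45395665 to 45411080 on chromosome 8, and Ly96 at 16688051 to 16709611 on chromosome 1. Of the 10 gene intervals in the count table, 9 were equal to those of GENCODE M21. Tlr3 overlaps Gm45542 on the opposite strand, which had 0 reads in each library.

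Tlr1 and Tlr6 are close copies, and this bears on how their reads could be assigned. Of all stretches of 50 bases in the Tlr1 transcripts, 15.4% also occurred in another gene, mainly Tlr6, and 12.3% of those of Tlr6 occurred in another gene, mainly Tlr1. The share was 5.30% for Tlr3, with Gm45542, 0.216% for Tlr4 and 0 for Tlr2, Tlr7, Tlr8, Tlr13, Cd14 and Ly96. The longest run that the coding sequences of Tlr1 and Tlr6 share is 229 bases, from base 1468 to 1696 of the 2385 coding bases of Tlr1 and from 1507 to 1735 of the 2418 of Tlr6. It is shown, from the GENCODE M21 transcripts, because a read that falls wholly inside it could not be given to one gene or the other, so that the separate levels of this pair are uncertain.
Tlr1 and Tlr6, shared coding run: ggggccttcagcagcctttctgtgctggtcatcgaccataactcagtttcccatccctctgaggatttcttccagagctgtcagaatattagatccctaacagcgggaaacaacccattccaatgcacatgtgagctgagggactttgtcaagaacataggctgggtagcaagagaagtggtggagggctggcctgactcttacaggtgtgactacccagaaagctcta

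Upstream sequence was available for 6 of the genes in the RefSeq promoter table of GRCm38.p6, namely Tlr1, Tlr2, Tlr3, Tlr6, Tlr8 and Tlr13, and was not matched for Tlr4, Tlr7, Cd14 and Ly96. In the 250 bases before each RefSeq start, both strands were searched for the AHR core GCGTG, the STAT motif TTCNNNGAA, the PU.1 motif GAGGAA, the AP-1 motif TGANTCA and the NF-kB consensus. The 2 genes with a match to the NF-kB consensus, which 7.25% of 32817 promoter windows held, were Tlr2 and Tlr3. In Tlr2 overlapping matches covered bases -173 to -163 from the RefSeq start, which lie 14 to 4 bases before the start of the gene in the count table. The match of Tlr3, at -211 to -202, lies inside the gene in the count table, 489 to 498 bases past its start there. Whether it lies in an exon was not checked. None of the windows held the AHR core, which 28.1% of all windows held, or the AP-1 motif (6.75%), and Tlr6 matched none of the motifs. Tlr8 and a second, inner window of Tlr1 matched the STAT motif (7.01% of windows), and Tlr8, Tlr13 and the outer window of Tlr1 matched PU.1 (23.3%). The bases upstream of both the RefSeq start and the outer end of the gene are given for Tlr2, at chr3:83841768-83841858, and for its partners Tlr1, at chr5:64933564-64933808, and Tlr6, at chr5:64960098-64960298, each read on the minus strand from 5′ to 3′. Capitals mark the NF-kB matches. A match is a description of the letters and was not tested as a binding site.
Tlr2: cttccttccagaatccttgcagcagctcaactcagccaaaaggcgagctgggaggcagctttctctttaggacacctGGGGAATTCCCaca
Tlr1: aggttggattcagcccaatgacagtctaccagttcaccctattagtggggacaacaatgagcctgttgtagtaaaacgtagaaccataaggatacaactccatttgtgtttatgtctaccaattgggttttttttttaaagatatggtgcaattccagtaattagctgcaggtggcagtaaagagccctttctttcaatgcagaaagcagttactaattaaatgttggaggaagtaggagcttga
Tlr6: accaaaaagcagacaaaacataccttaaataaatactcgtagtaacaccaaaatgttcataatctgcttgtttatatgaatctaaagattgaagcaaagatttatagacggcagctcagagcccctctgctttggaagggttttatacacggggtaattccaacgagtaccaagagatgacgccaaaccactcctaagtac

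The first question was which pattern receptors these macrophages expressed, and at which level. Levels of different genes were compared per length, as RPKM, the CPM divided by the gene length of the table in kilobases. In normal medium with DMSO, Cd14 was the most abundant of the 10 genes at 175 RPKM, followed by Tlr13, a receptor for bacterial ribosomal RNA, at 104 RPKM. Tlr8 (19.6), Tlr4 (13.7), Tlr1 (12.0), Tlr6 (9.27) and Ly96 (8.54) formed the middle of the order, and Tlr7 (5.55), Tlr3 (2.53) and Tlr2 (1.98) its end. The counting intervals of Tlr4 and Tlr1, of Tlr6 and Ly96, and of Tlr3 and Tlr2 overlapped. Overlap of separate intervals does not decide an order, and the ratios within these pairs were not computed.

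In 4T1-CM with DMSO the order was led again by Cd14, now at 2006 RPKM, and by Tlr13 at 113 RPKM. Tlr2 had moved from the last place to the third, at 83.5 RPKM. Tlr8 (27.9), Tlr7 (16.0), Ly96 (15.1), Tlr4 (12.6), Tlr1 (10.2), Tlr6 (7.91) and Tlr3 (3.75) followed, and the intervals of Tlr7 and Ly96 and of Ly96 and Tlr4 overlapped. Among all 13715 genes ranked per length, Cd14 went from place 216 to place 13 between the media, and Tlr2 from place 8818 to place 507, all with DMSO. With CH223191 the corresponding places were 311 and 13 for Cd14 and 9556 and 642 for Tlr2.

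**Figure D1:**
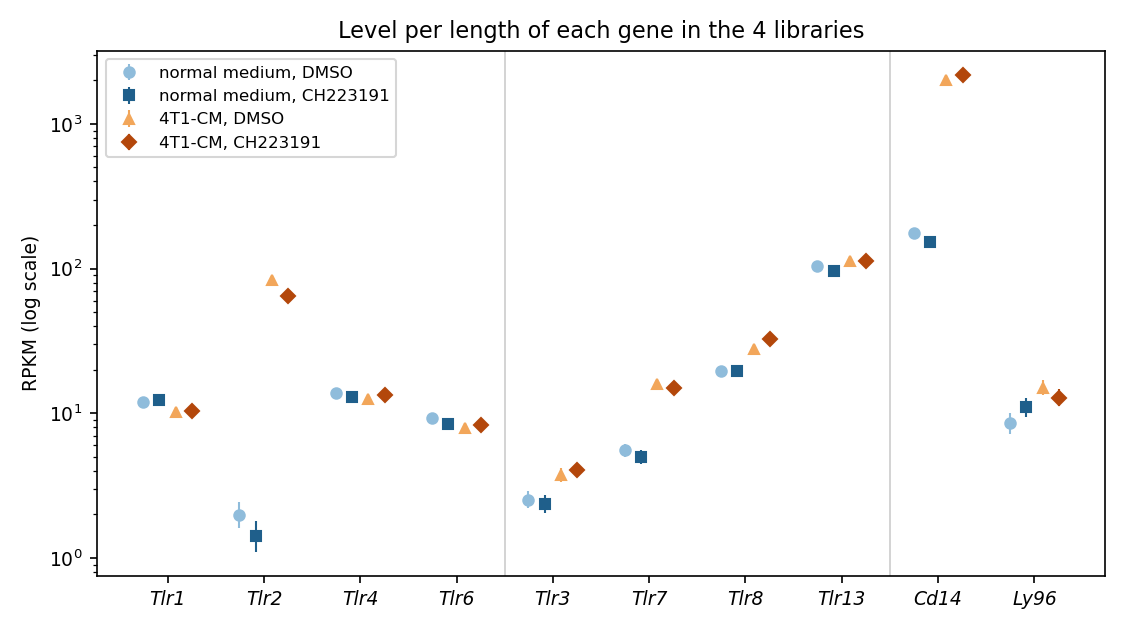
Level of each of the 10 genes in the 4 libraries, in RPKM on a log axis, with 1 point per library and exact Poisson 95% intervals of the reads as bars. Tlr2 lies at 1.42 to 1.98 RPKM in normal medium and at 64.3 to 83.5 RPKM in 4T1-CM, and Cd14 at 152 to 175 and at 2006 to 2173 RPKM, while the points of Tlr1, Tlr4 and Tlr6 lie close together.

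The second question was how the receptors differed between 4T1-CM and normal medium. Of the 10 genes, 3 were at least 2-fold higher with DMSO (Tlr2, Tlr7 and Cd14) and none was 2-fold lower. The same rule held for 12.2% of all 13715 genes upwards and for 6.12% downwards. In the separate pair of libraries with CH223191 the same 3 genes were at least 2-fold higher and none lower, beside 12.0% and 7.86% of all genes. Being 2-fold higher in both pairs was met by 3 of the 10 genes and by 8.18% of all genes. The median log2 ratio of the 10 genes was 0.54 with DMSO and 0.48 with CH223191, where all genes had medians of 0.01 and 0.02.

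An additive fit of medium and inhibitor over the 4 libraries was also made with the quasi-likelihood test of edgeR, with 1 residual degree of freedom. For the effect of 4T1-CM it called 5 of the 10 genes higher at an adjusted p under 0.05, beside 16.4% of all genes called higher. These were Tlr2 (log2 change 5.45, adjusted p = 5.41e-09), Cd14 (3.68, adjusted p = 2.40e-08), Tlr7 (1.55, adjusted p = 9.10e-06), Tlr8 (0.63, adjusted p = 0.00371) and Tlr3 (0.67, adjusted p = 0.00929). The fit takes the difference between inhibitor and solvent as equal in both media, and its spread comes from how far the 4 libraries depart from that, not from repeated cultures.

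Of the surface receptors, Tlr2 carried the difference. In normal medium Tlr2 had 95 reads (5.96 CPM) with DMSO and 68 reads (4.28 CPM) with CH223191, against 4404 reads (252 CPM) in 4T1-CM with DMSO and 3150 reads (194 CPM) with CH223191. Both libraries in 4T1-CM were far above both in normal medium. The ratio was 42.0-fold with DMSO (95% interval 34.5 to 52.3) and 45.0-fold with CH223191 (35.7 to 58.5). Among the 8323 genes that averaged 10 CPM or more, ordered from the highest ratio down, Tlr2 stood at places 25 and 20. It reached that average only through the libraries in 4T1-CM, where it was high. Among all 13715 genes its places were 60 and 42.

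The partners of TLR2 did not share this difference. Tlr1 had 641 and 654 reads in normal medium and 599 and 564 in 4T1-CM, with DMSO first, and its log2 ratio was -0.23 (-0.40 to -0.07) with DMSO and -0.24 (-0.41 to -0.08) with CH223191. Tlr6 had 551, 501, 516 and 502 reads in the same order of libraries, with log2 ratios of -0.23 (-0.41 to -0.05) and -0.03 (-0.21 to 0.15). Reads that the 2 genes share could have been placed in either of them, but both lay within a narrow range in the 4 libraries. Per length, Tlr2 was 0.165 times as abundant as Tlr1 in normal medium with DMSO (0.131 to 0.204) and 8.16 times as abundant in 4T1-CM (7.49 to 8.90). With CH223191 these ratios were 0.115 and 6.20, so that the order of the pair was turned in both sets of libraries. Against Tlr6 the ratios of Tlr2 were 0.213 and 10.6 with DMSO and 0.168 and 7.76 with CH223191.

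Tlr4, the LPS receptor, had 1215 and 1138 reads in normal medium and 1226 and 1211 in 4T1-CM. Its log2 ratio was -0.12 (-0.24 to -0.01) with DMSO and 0.06 (-0.06 to 0.18) with CH223191, and in CPM the libraries lay between 70.0 and 76.2. Cd14 differed widely where Tlr4 did not. Cd14 had 4379 reads (275 CPM) and 3808 reads (239 CPM) in normal medium, and 55189 reads (3153 CPM) and 55483 reads (3415 CPM) in 4T1-CM, with DMSO first. The ratio was 11.5-fold with DMSO (11.1 to 11.8) and 14.3-fold with CH223191 (13.8 to 14.7), at places 55 and 42 among the 8323 genes. Per length, Cd14 was 12.7 times as abundant as Tlr4 in normal medium with DMSO (12.0 to 13.6) and 159 times as abundant in 4T1-CM (150 to 169).

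Ly96 had 139 and 179 reads (8.72 and 11.3 CPM) in normal medium and 269 and 213 reads (15.4 and 13.1 CPM) in 4T1-CM. Its ratio was 1.76-fold with DMSO, a log2 ratio of 0.81 (0.52 to 1.12), and 1.16-fold with CH223191, a log2 ratio of 0.22 with an interval of -0.07 to 0.52. Per length, Ly96 was 0.623 times as abundant as Tlr4 in normal medium with DMSO (0.519 to 0.743) and 1.19 times as abundant in 4T1-CM (1.04 to 1.36). With CH223191 the ratios were 0.856 (0.727 to 1.003) and 0.957 (0.824 to 1.108), and their intervals overlapped. In the additive edgeR fit the effect of 4T1-CM on Ly96 was 0.52 with an adjusted p of 0.0633, and those on Tlr13, Tlr1, Tlr6 and Tlr4 had adjusted p-values of 0.301, 0.176, 0.497 and 0.869.

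The endosomal receptors differed less than Tlr2 and Cd14, and unequally. Tlr7, a receptor for single-stranded RNA, had 361 and 325 reads (22.6 and 20.4 CPM) in normal medium and 1146 and 990 reads (65.5 and 60.9 CPM) in 4T1-CM. The ratio was 2.89-fold (2.57 to 3.26) with DMSO and 2.98-fold (2.63 to 3.39) with CH223191, at places 229 and 198 among the 8323 genes. Tlr8, its neighbour on the X chromosome, had 70.2, 69.7, 100.2 and 116 CPM in the same order of libraries. Its log2 ratio was 0.51 (0.40 to 0.62) with DMSO and 0.74 (0.63 to 0.85) with CH223191, and the ratio of Tlr7 to Tlr8 per length went from 0.283 (0.251 to 0.319) to 0.574 (0.532 to 0.619) with DMSO. Tlr3, which binds double-stranded RNA, had 210, 195, 342 and 340 reads, with log2 ratios of 0.57 (0.32 to 0.82) and 0.77 (0.51 to 1.03). Tlr13 had 7116 and 6633 reads in normal medium and 8548 and 7900 in 4T1-CM, and its log2 ratios were 0.13 and 0.22.

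**Figure D2:**
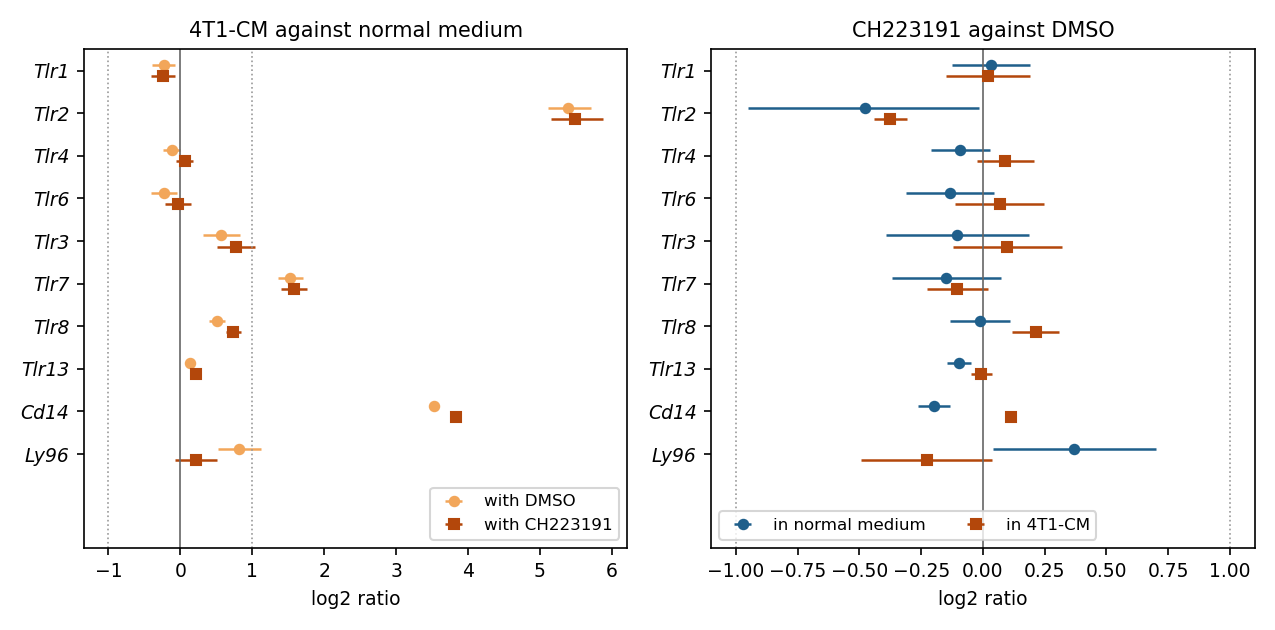
Log2 ratios of the 10 genes between libraries, with bars for the exact 95% counting interval and dotted lines at 2-fold. On the left, 4T1-CM against normal medium, Tlr2 lies at 5.39 and 5.49, Cd14 at 3.52 and 3.83 and Tlr7 at 1.53 and 1.57 with DMSO and with CH223191; on the right, CH223191 against DMSO, each point lies inside the lines, between -0.48 and 0.37.

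Because one receptor differed so much, the make-up of the Toll-like receptor RNA differed too. Summed over the 8 receptors with DMSO, the level was 168 RPKM in normal medium and 275 RPKM in 4T1-CM. With CH223191 the sums were 159 and 261 RPKM. Tlr2 went from 1.17% of that sum to 30.3% between the media with DMSO, and from 0.89% to 24.7% with CH223191. Tlr13 remained the largest single share, at 61.6% and 41.2% in the 2 libraries with DMSO. The surface receptors together made up 22.0% and 22.1% of the sum in normal medium and 41.5% and 37.0% in 4T1-CM.

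**Figure D3:**
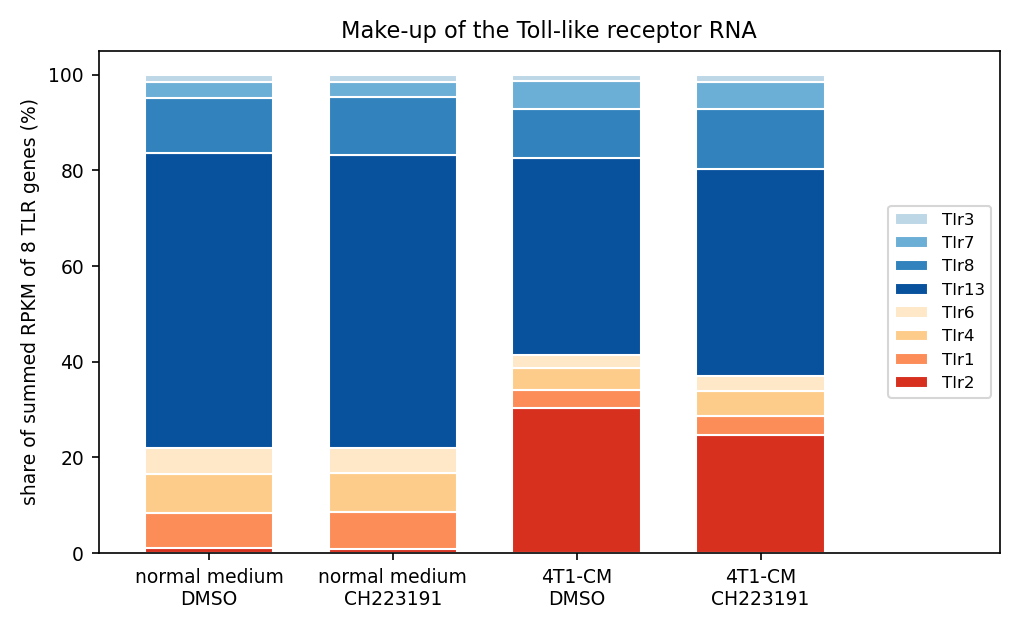
Share of each Toll-like receptor in the summed RPKM of the 8 receptor genes, in percent, with 1 bar for each library. Tlr2 (red) is 1.17% and 0.89% in normal medium and 30.3% and 24.7% in 4T1-CM, and Tlr13 (dark blue) goes from 61.6% to 41.2% with DMSO.

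The third question was whether the AHR antagonist CH223191 changed the receptors. Against DMSO, none of the 10 genes was 2-fold higher or lower in either medium. In normal medium, 4.84% of all genes passed that limit upwards and 3.31% downwards, and in 4T1-CM these shares were 2.80% and 2.62%. The 10 genes belong to the 11765 that no library held at fewer than 10 reads. Of those 11765, 1.92% passed upwards and 0.765% downwards in normal medium, and 0.705% and 0.442% in 4T1-CM. With shares this small, finding none among 10 genes does not set the receptors apart from other genes. For the 10 genes the median log2 ratio came to -0.10 and 0.04, and for all genes to 0.00 in each medium. The additive edgeR fit called 0 of the 10 genes for CH223191 and 0.0802% of all genes. Tlr2 was the 1 gene of the 10 with an unadjusted p under 0.05, and the adjusted p of the edgeR fit for it was 0.727.

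Tlr2 was lower with CH223191 in both media, by sizes under 2-fold. Its log2 ratio against DMSO was -0.48 (-0.95 to -0.01) in normal medium, from 95 and 68 reads, and -0.38 (-0.44 to -0.31) in 4T1-CM, from 4404 and 3150 reads. Cd14 was lower with CH223191 in normal medium, with a log2 ratio of -0.20 (-0.26 to -0.14), and higher in 4T1-CM, with 0.12 (0.10 to 0.13). Tlr8 was higher with CH223191 in 4T1-CM, at 0.21 (0.12 to 0.31), and at -0.01 in normal medium. Ly96 was at 0.37 (0.04 to 0.70) in normal medium and at -0.23 with an interval that held 0 in 4T1-CM. In normal medium the 572 genes within 20% of the length of Ly96, one of the shortest genes here, had a median log2 ratio of 0.23 with CH223191, and the part of transcript length in the value of Ly96 was not tested. Tlr13 was at -0.10 (-0.15 to -0.05) in normal medium and at -0.01 in 4T1-CM. For Tlr1, Tlr3, Tlr4, Tlr6 and Tlr7 the counting interval held 0 in both media.

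The response to 4T1-CM was also compared between CH223191 and DMSO, as the difference of the log2 ratios with an interval from Poisson counting error. For Tlr2 the difference was 0.10 (-0.35 to 0.55) and for Tlr7 it was 0.04, with intervals that held 0. The ratio of Cd14 was larger with CH223191 by 0.31 (0.25 to 0.38), that of Tlr8 by 0.22 (0.07 to 0.38), that of Tlr4 by 0.18 (0.02 to 0.34) and that of Tlr13 by 0.09 (0.03 to 0.16). The ratio of Ly96 was smaller by 0.60 (-1.01 to -0.18 for the difference). These intervals leave out the spread between cultures, which 1 library per condition does not give, so that a difference of this size cannot be set against it.

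The rest of the pathway was read from lists of genes by role, each described by counts, to be read beside the shares of all genes (with DMSO, 12.2% higher and 6.12% lower in 4T1-CM). The other mouse receptors were scarcely detected: Tlr11 had 0 reads in all libraries, Tlr5 at most 2 and Tlr12 at most 5. Tlr9, the receptor for unmethylated DNA, had 7, 15, 32 and 15 reads. Its log2 ratio in 4T1-CM was 1.98 (0.85 to 3.48) with DMSO and -0.03 (-1.17 to 1.10) with CH223191, so that 1 of the 4 libraries, that in 4T1-CM with DMSO, stood above the others. Of the 6 genes for folding and trafficking of the receptors, none was 2-fold higher or lower in 4T1-CM. Unc93b1, which carries endosomal receptors out of the endoplasmic reticulum, had 8969, 7854, 6629 and 6338 reads, with log2 ratios of -0.57 with DMSO and -0.34 with CH223191. None of the 5 lysosomal proteases that cut endosomal receptors reached 2-fold either.

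Of the 21 adaptors and proximal kinases, 1 was at least 2-fold higher in each pair of libraries and none in both. It was Traf3 with DMSO (log2 ratio 1.06) and Traf6 with CH223191 (1.04), both ubiquitin ligases of the pathway. Myd88, the adaptor of most of the receptors, had 609, 568, 725 and 551 reads and log2 ratios of 0.12 and -0.07. Among the 6 transcription factors, Irf7, which drives type I interferon genes, was the one 2-fold higher in both pairs, with 225 and 330 reads in normal medium and 2954 and 2132 in 4T1-CM. Among the 6 negative regulators that passed the read minimum, of 8 listed, it was Irak3, a brake on MyD88 signalling, with 265, 290, 2716 and 2167 reads, which is 9.32-fold and 7.30-fold higher in 4T1-CM.

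Of 14 genes that LPS is known to induce early in macrophages, 6 had at least 10 reads in every library. Of these, Nfkbiz, Nfkbia and Ptgs2 were at least 2-fold higher in 4T1-CM in both pairs, beside 4.82% of the 11765 genes with as many reads in every library. Nfkbiz, a nuclear cofactor of NF-kB, had 50 and 35 reads in normal medium and 1130 and 1081 in 4T1-CM, with log2 ratios of 4.35 (3.95 to 4.80) and 4.90 (4.43 to 5.45). Nfkbia, which encodes the inhibitor of NF-kB, was 4.58-fold and 4.59-fold higher. The genes that passed the read minimum through 4T1-CM alone, or nearly so, are given by their reads and not counted. Il1b, the interleukin-1 beta gene, had 2 and 8 reads in normal medium and 3162 and 2252 in 4T1-CM. Il6 had 0 reads in normal medium and 10 in each library with 4T1-CM, and Nos2 had 0 and 1 against 45 and 44. Cxcl1, a chemokine for neutrophils, had 4 and 8 reads against 278 and 208, and Cxcl2, a related chemokine, 5 and 15 against 207 and 132. Tnf, with log2 ratios of 0.90 and 0.67, and Ccl3, with 0.80 and 0.20, were under 2-fold, and Ccl4 was at -0.61 and -0.70. Ifnb1 had 0 reads in every library. Il12b had 0 reads in normal medium and 3 and 4 in 4T1-CM, and Cxcl10 had 0 against 9 and 1.

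Receptors of other families and the proteins beside TLRs varied. Lbp, the LPS-binding protein, passed the read minimum in 4T1-CM alone, with 19 and 30 reads there and 1 read in each library of normal medium. The 8 cytosolic and lectin receptors in the table had at least 10 reads in every library. Of these 8, 3 were at least 2-fold higher in both pairs, beside 4.82% of the 11765 genes with as many reads. The 3 receptors were Clec4e (Mincle, a lectin for mycobacterial glycolipids), with 64 and 81 reads in normal medium and 6396 and 4354 in 4T1-CM, Nod2, at 2.60-fold and 2.86-fold, and Nlrp3, at 2.40-fold and 2.75-fold. Cd36, a scavenger receptor that can assist TLR2, was lower in 4T1-CM, with 63262 and 69640 reads in normal medium and 34849 and 33907 in 4T1-CM, which is 0.502 and 0.477 times the level, just inside and just past 2-fold. Cd180, an LPS-related receptor of the same protein family, was at -0.60 and -1.11. With CH223191 against DMSO, no gene of these lists was 2-fold changed in the same direction in both media. The share of all genes that met this rule was not computed. In 4T1-CM alone, 2.80% of all genes were 2-fold higher and 2.62% lower, and a rule over both media cannot be met by more. The absence of such genes therefore does not set these lists apart.

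**Figure D4:**
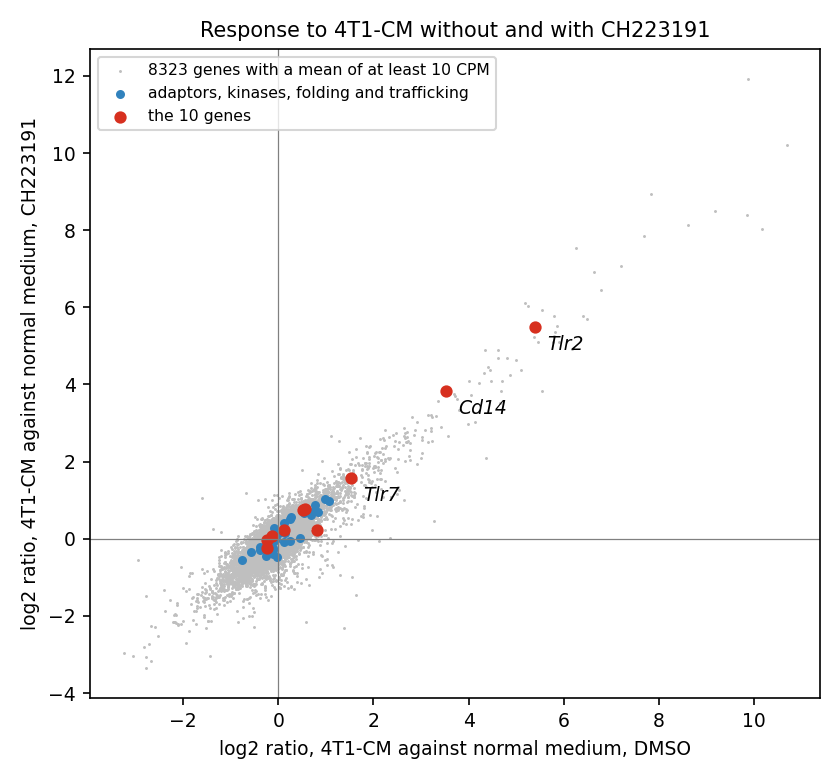
Log2 ratio of 4T1-CM to normal medium with DMSO (x axis) and with CH223191 (y axis), for the 8323 genes that averaged 10 CPM or more (grey), the genes of the adaptor, kinase, folding and trafficking lists (blue) and the 10 receptor and co-receptor genes (red). Tlr2 lies at 5.39 and 5.49 and Cd14 at 3.52 and 3.83, towards the upper right end of the cloud, Tlr7 lies at 1.53 and 1.57, and the other red points lie below 2-fold among the grey ones.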

How the data were processed

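RNA-seq libraries of mouse peritoneal macrophages, 1 per condition, were grouped by their sample labels. The values the authors deposited are raw counts of reads on each gene, as whole numbers, with gene lengths. All 4 count columns were used. The submitters' processing notes name HISAT2 2.0.5 and DESeq2. The counting tool, its strand setting and the genome build are not given in the sources used here for these libraries, and without strand, overlapping genes cannot be separated. Gene coordinates in the table were matched to GENCODE M21 (GRCm38). The reference is not that of BALB/c mice.

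The members and gene lists were chosen with earlier results of these data known. Genes with at least 10 reads in 1 library or more were kept, 13715 of 54532. Libraries were scaled by TMM (edgeR 4.0.16, R 4.3.3). A prior count of 0.5 was added for log2 ratios. TMM factors were 0.986 to 1.026, and 3 reads correspond to 0.171 to 0.189 CPM. A call was a 2-fold ratio. Ratio intervals are 95% Clopper-Pearson, differences use Poisson variances, and levels use exact Poisson intervals. All cover counting error only. Genes with 3 reads or fewer in a library were given by reads. The additive edgeR fit used Benjamini-Hochberg adjustment. Named genes were all members and list genes past 2-fold in both pairs of libraries (among markers, Cdh1, at 3, 7, 16 and 20 reads, is one). The 3 genes nearest to each member by Euclidean distance of centred log2 CPM were named too. Other named list genes, such as Myd88, Unc93b1, Traf3, Traf6, Tnf, Ccl4, Cd36, Cd180, Ly86 and Tlr9, were chosen after their values were seen. The scripts were tested on simulated data. Alternatives were DESeq2 1.42.0 size factors, total counts, a prior count of 5, and other filters.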

Additional observations from a re-analysis of the deposited data

Results flagged for a closer look

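Cd14 was the one gene of the 10 whose ratio between CH223191 and DMSO had opposite signs in the 2 media with both counting intervals away from 0. The log2 ratio was -0.20 in normal medium (4379 reads with DMSO and 3808 with CH223191) and 0.12 in 4T1-CM (55189 and 55483 reads). It was picked out because the single library of each medium moved in opposite directions, and the difference was not tested across repeated cultures. In normal medium the 1141 genes within 20% of the length of Cd14 had a median log2 ratio of 0.14 with CH223191, against which Cd14 was lower.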

How the results depend on the processing

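No paired analysis was possible because each condition has 1 library and the labels carry no replicate numbers. Leaving out a library was not run, since it removes a condition. Of 220 values of the 10 genes recomputed under 5 alternatives, 219 stayed within their counting interval and none past 2-fold changed sign, with shifts of at most 0.012 (DESeq2 size factors), 0.06 (total counts), 0.09 (prior count of 5), 0.02 (no filter) and 0.03 (10 reads in every library) on the log2 scale. The exception was Tlr13 with CH223191 in normal medium, at -0.16 with total counts and -0.10 (-0.15 to -0.05) with TMM. With total counts 2 values near 0 took the other sign, both of Tlr1: CH223191 in normal medium (0.03 to -0.03) and the difference between responses (-0.01 to 0.04). Among the 10 genes, the counts past 2-fold were the same under those 5 alternatives, and the additive edgeR fit called 5 where the 2-fold rule counted 3. In TPM the order of the 10 genes per length cannot differ, because TPM is RPKM rescaled by a single factor in each library.

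Counts over all genes depended on how scarce genes were treated. With a prior count of 5, CH223191 left 363 genes past 2-fold upwards and 168 downwards in normal medium, and 183 and 139 in 4T1-CM. With no filter (21917 genes) the counts higher and lower were 4601 and 2587 for 4T1-CM with DMSO, 4358 and 2995 for 4T1-CM with CH223191, 2815 and 2260 for CH223191 in normal medium, and 2583 and 2688 for CH223191 in 4T1-CM, and 2017 were higher in both pairs. With 10 reads in every library (11765 genes) they were 849 and 500, 868 and 677, 226 and 89, and 83 and 53 in that order, and 586 were higher in both pairs. For both of these filters the TMM scaling was recomputed on the genes kept. With the main scaling, 567 of the 11765 genes (4.82%) were higher in both pairs. Depth limits Tlr5, Tlr11 and Tlr12, with at most 5 reads, for which no ratio was taken.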

Other observations

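Some genes had patterns over the 4 libraries close to those of the receptors, measured as the distance between log2 levels centred on each gene's mean, over the 8323 genes averaging 10 CPM or more. Nearest to Tlr7 were Relb, a subunit of NF-kB (distance 0.043), Icam1, an adhesion molecule (0.047), and Fth1, the ferritin heavy chain (0.052). Nearest to Tlr2 were Cav1 (0.331), Clmp (0.399) and Ass1 (0.453), and nearest to Cd14 were Mmp14, a membrane-bound matrix protease (0.169), Egln3 (0.173) and Carmil1 (0.247). Nearest to Ly96 were Ccl3, a chemokine, at 0.025, with 54.3, 71.2, 94.8 and 81.9 CPM, Ethe1 and Gm1821. For the other members they were Lsg1, Tldc1 and Mgrn1 (Tlr1), Eri3, Osbp and Ankrd12 (Tlr4), Lix1l, Pdp1 and Ndfip1 (Tlr6), Pld1, Prkab2 and Fry (Tlr3), Kdm4b, Ndrg1 and Tigd2 (Tlr8), and Cables2, Lrp11 and Atg13 (Tlr13), at distances of 0.012 to 0.056. With only 4 libraries and a single difference between media, many genes lie close to one another.

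Ly86, which encodes the partner of CD180 and is a relative of Ly96, had 192, 346, 419 and 411 reads. Its log2 ratio in 4T1-CM was 0.99 (0.74 to 1.24) with DMSO and 0.22 (0.01 to 0.43) with CH223191, and with CH223191 in normal medium it was 0.85 (0.59 to 1.12).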
